A study of Mus musculus with 12 samples.

Results

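The circadian clock genes described here were the 10 genes Per1, Per2, Per3, Nr1d1, Nr1d2, Dbp, Tef, Arntl, Clock and Cry1, found by their symbols among the 32285 genes of the deposited count files. They were chosen by name with results of these same libraries known, and which measured values they were selected on is not given in the sources used here. Their levels and diet differences are therefore given as a description of these mice, and the adjusted p-values printed are those of fits over all genes, not independent evidence about the list. Single cells of the epidermis of the glabrous hind paw, the hairless sole skin, were sequenced with 10x Genomics 3' libraries, 1 library per mouse. All 12 mice were wild-type C57BL/6J, aged 16-18 weeks at collection, and differed in sex and in diet: 3 male and 3 female mice ate a regular diet (RD, 11% fat), and 3 male and 3 female mice ate a high-fat diet (HFD, 42% fat), for 10 weeks each. The skin was held in Dispase overnight in the cold before the cells were separated, and the hour at which it was taken is not given in the sources used here. Per the file headers the male libraries were counted with Cell Ranger 6.1.0 and the female libraries with Cell Ranger 7.2.0, so that sex and counting software cannot be told apart.

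In mammalian cells the clock is a loop of transcription and translation that takes about a day. The proteins of Arntl (also called Bmal1) and Clock bind E-box sequences together and switch on the Per and Cry genes, whose proteins then hold Arntl and Clock back. Nr1d1 and Nr1d2 (the Rev-erb receptors) repress Arntl through ROR elements, and Dbp and Tef carry the rhythm to output genes through D-boxes. Transcripts of Arntl are known to peak at a time of day opposite to those of Dbp and Nr1d1, and epidermal keratinocytes are known to hold a clock of their own.

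RefSeq promoters, each with 250 bases before and 50 bases after a transcription start (build GRCm38.p6), were found for 9 of the 10 genes and gave 14 promoters. The exact E-box CACGTG was present in 4 of these promoters, of 3 genes, against 7.15% of all 32851 promoters. The D-box, searched as TTATGTAA and TTACGTAA, was present in 1 promoter, against 1.06% of all promoters. The ROR element TAGGTCA was present in 1 promoter, against 2.61% of all promoters, and the cAMP element TGACGTCA in 0, against 1.79%. Both strands were searched, and the motifs do not overlap in these promoters. The promoters below are shown because they hold these letters, on the strand of the gene and with the matches in capitals. A match is a description of the letters, not a tested site.
Per1, chr11:69098699-69098998, plus strand, E-box starting 166 bases before the start: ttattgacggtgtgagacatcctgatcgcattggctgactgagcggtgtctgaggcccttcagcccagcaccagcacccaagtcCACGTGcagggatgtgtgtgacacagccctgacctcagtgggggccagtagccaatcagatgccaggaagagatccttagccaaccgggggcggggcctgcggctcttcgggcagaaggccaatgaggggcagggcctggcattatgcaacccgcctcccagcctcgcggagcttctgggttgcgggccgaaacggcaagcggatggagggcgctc
Cry1, chr10:85185005-85185304, minus strand, E-box starting 60 bases before the start: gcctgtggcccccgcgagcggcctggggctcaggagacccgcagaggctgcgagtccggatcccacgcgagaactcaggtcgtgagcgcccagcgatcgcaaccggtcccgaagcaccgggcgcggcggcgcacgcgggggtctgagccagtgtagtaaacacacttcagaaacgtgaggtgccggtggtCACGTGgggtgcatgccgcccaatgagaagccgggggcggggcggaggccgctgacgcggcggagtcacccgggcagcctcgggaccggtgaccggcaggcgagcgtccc
Tef, chr15:81802423-81802722, plus strand, E-box starting 127 bases before the start: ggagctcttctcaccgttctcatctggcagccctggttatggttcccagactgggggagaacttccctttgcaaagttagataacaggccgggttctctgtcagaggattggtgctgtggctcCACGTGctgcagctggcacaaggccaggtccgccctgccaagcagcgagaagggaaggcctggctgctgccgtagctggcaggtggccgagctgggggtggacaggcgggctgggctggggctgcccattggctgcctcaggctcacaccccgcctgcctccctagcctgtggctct
Per3, chr4:151044616-151044915, minus strand, D-boxes starting 205 and 158 bases before the start: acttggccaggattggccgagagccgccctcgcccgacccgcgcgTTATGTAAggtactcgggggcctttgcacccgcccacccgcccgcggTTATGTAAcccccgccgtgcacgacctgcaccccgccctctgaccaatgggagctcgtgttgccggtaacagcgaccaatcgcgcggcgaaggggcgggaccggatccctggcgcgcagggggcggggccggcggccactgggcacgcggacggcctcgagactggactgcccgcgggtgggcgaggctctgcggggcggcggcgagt
Arntl, chr7:113207261-113207560, plus strand, ROR element starting at base 31 of the transcript: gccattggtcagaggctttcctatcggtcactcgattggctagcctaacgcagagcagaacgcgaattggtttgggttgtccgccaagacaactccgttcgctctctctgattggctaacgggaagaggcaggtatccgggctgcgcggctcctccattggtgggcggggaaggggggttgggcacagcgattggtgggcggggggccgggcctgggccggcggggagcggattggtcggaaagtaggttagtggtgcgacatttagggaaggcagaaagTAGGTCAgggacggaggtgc
The genes thus shown stand on different sides of the loop: Per1 and Cry1 encode its inhibitors, Tef and Per3 are driven by it, and Arntl encodes its activator. A second promoter of Tef also held an E-box, and the windows of Nr1d1, Nr1d2, Dbp and Clock held none of the 4 motifs.

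The libraries held between 134449247 and 194673581 UMIs (unique molecular identifiers, 1 per captured transcript), and 126375 of 140392 barcodes passed the filters on genes and mitochondrial UMIs. Libraries shared at most 0.564% of the barcodes of the smaller library. In males 1343 and in females 2121 cells were Langerhans cell-like (LC-like, the antigen-presenting cells of the epidermis), with Cd207 and MHC class II genes among their leading genes and all 9 fixed LC markers passing. The keratinocytes were 60581 male and 61768 female cells, in which 5 classes were named from fixed markers: migratory, basal, proliferating, suprabasal or spinous, and terminally differentiated cells. The clock genes were kept out of the clustering. The summed level of the LC markers ranged from 36600.5 to 54904.7 CPM (counts of a gene per 1000000 UMIs of the same cells) among the LC-like populations, and from 17.2 to 40.5 CPM among the keratinocytes. The 5 melanocyte markers summed to at most 6.46 CPM and the 4 endothelial markers to at most 12.2 CPM in keratinocytes, while the 5 fibroblast markers summed to 38.9 to 78.6 CPM and the 4 sweat gland markers to 33.9 to 87.2 CPM. The LC-like cells carried keratinocyte RNA, with keratin UMIs at 1.30 to 2.03% of all UMIs in males and 0.338 to 0.746% in females, and a subcluster led by keratinocyte genes held 278 male and 310 female LC-like cells. Levels in LC-like cells are therefore also given for the cells of each mouse with the fewer keratin UMIs, up to the mouse's median, in which the keratin share was at most 0.0639%.

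Clock genes differed between Langerhans cells and keratinocytes and along the keratinocyte stages. The share of all genes that differed between these classes in every mouse is not given here. Per1, which encodes a clock inhibitor that also responds quickly to stress hormones, was the member highest in LC-like cells relative to keratinocytes. Its level was 71.7 ± 14.5 CPM in male and 57.1 ± 5.80 CPM in female LC-like cells (SD, n = 6 mice), against 30.0 ± 2.14 and 23.7 ± 4.62 CPM in all keratinocytes. It was higher in LC-like cells in 6 of 6 mice of each sex, by between 2.14 and 3.24 times in males and between 2.26 and 3.22 times in females. In the LC-like cells with fewer keratin UMIs the ratio to keratinocytes rose to 3.34 in males and 2.61 in females. Per2 showed no such pattern, with 4 of 6 males and 1 of 6 females higher in LC-like cells.

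Dbp, Nr1d1, Tef and Arntl went the other way. Dbp, a transcription factor that drives rhythmic output genes, was at 38.0 ± 9.89 CPM in male LC-like cells and at 77.8 ± 11.1 CPM in male keratinocytes. In females it was at 5.76 ± 1.57 against 14.0 ± 7.08 CPM, and all 12 mice had less Dbp in LC-like cells. Nr1d1 was at 60.5 ± 16.8 against 127 ± 17.1 CPM in males and at 20.5 ± 5.84 against 69.6 ± 8.28 CPM in females, again lower in LC-like cells of all 12 mice. With fewer keratin UMIs the mean of Dbp in male LC-like cells was 11.2 CPM and that of Nr1d1 was 19.2 CPM, or 0.143 and 0.151 of their keratinocyte levels. The gap to keratinocytes was therefore larger where less keratinocyte RNA was present. Tef, a relative of Dbp, and Arntl were also lower in LC-like cells than in keratinocytes in all 12 mice, with mean ratios of 0.545 and 0.533 in males and 0.547 and 0.495 in females. With fewer keratin UMIs these ratios were 0.309 and 0.324 in males and 0.434 and 0.384 in females.

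Over all LC-like cells, Clock in females and Cry1 in males differed in direction from mouse to mouse. The partner of Arntl, Clock, had a ratio of 0.795 in males and 0.960 in females, and 2 of 6 females had more of it in LC-like cells. Cry1, which encodes an inhibitor of the Arntl and Clock pair, had a ratio of 0.978 in males, with 3 of 6 mice on either side, and of 0.644 in females, with 6 of 6 lower. In the LC-like cells with fewer keratin UMIs, Cry1 in males had a ratio of 0.770, with 1 of 6 mice higher than keratinocytes. Clock there had a ratio of 0.708 in males and 0.901 in females, with 1 of 6 mice of each sex higher. Nr1d2 was lower in LC-like cells in 5 of 6 males and 6 of 6 females. The number of UMIs behind these levels was small in LC-like cells, between 5 and 375 per gene and mouse, with Per3 at 9 to 27 and Arntl in males at 5 to 22.

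Along the keratinocyte stages several members fell in plain CPM as the cells differentiated. How many of all genes fell in the same way is not given here. Per2 was at 20.7 ± 3.52 CPM in basal, 10.9 ± 1.38 CPM in suprabasal or spinous and 4.34 ± 1.20 CPM in terminally differentiated cells of males. In females the classes of these names had 15.2 ± 2.02, 7.29 ± 0.915 and 5.02 ± 1.75 CPM. Each of these steps was downward in all 12 mice. The suprabasal or spinous class held different clusters in the sexes, so that its levels cannot be compared between them. In both it held a cluster led by Gsta2, to which males added a cluster led by Il34 and Mt4 and females one led by Serpinb3a, while the Serpinb3a cluster of males and the Il34 and Mt4 cluster of females stayed unnamed. Per3, whose protein belongs to the same inhibitor family, fell from 20.3 ± 3.05 CPM in basal to 4.14 ± 1.54 CPM in terminally differentiated cells of males and from 9.53 ± 2.82 to 3.44 ± 0.820 CPM in females, lower in all 12 mice. Cry1 was likewise lowest in terminally differentiated cells in both sexes, with 0.420 of its basal level as the median over males and 0.326 over females.

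Nr1d1 had the opposite gradient. This heme-binding receptor, which represses Arntl, was at 99.3 ± 21.7 CPM in basal and 214 ± 17.3 CPM in terminally differentiated cells of males. In females it was at 75.5 ± 12.5 CPM in basal and 175 ± 13.5 CPM in terminally differentiated cells. The basal class was 1 cluster in males but 2 in females, led by Dlk2 and by Has2, with Nr1d1 at 54.5 ± 9.22 and 96.7 ± 12.3 CPM. Suprabasal or spinous cells as a class stood near the basal level, at 101 CPM in males (5 of 6 mice higher) and 75.6 CPM in females (3 of 6 higher). The clusters differed. In males the Il34 and Mt4 cluster was at 87.4 CPM and the Gsta2 cluster at 119 CPM. The unnamed Serpinb3a cluster of males, outside this class, was at 191 ± 14.2 CPM. In females the unnamed Il34 and Mt4 cluster was at 59.8 CPM, the Gsta2 cluster at 65.9 CPM and the Serpinb3a cluster at 90.0 CPM. The rise from basal to terminally differentiated cells was between 1.70 and 2.64 times in males and between 1.83 and 2.59 times in females. The lowest terminally differentiated value of either sex lay above the highest basal value of that sex. Its relative Nr1d2 did not share this: in males it fell from 46.7 ± 3.57 CPM in basal to 15.4 ± 1.48 CPM in terminally differentiated cells, and in females from 46.8 ± 2.91 to 30.3 ± 2.40 CPM, lower in all 12 mice.

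Dbp was lower in proliferating and in suprabasal or spinous cells than in basal cells of every mouse. In males Dbp was at 131 ± 19.2 CPM in basal, 114 ± 18.2 CPM in proliferating, 59.1 ± 10.9 CPM in suprabasal or spinous and 40.1 ± 3.76 CPM in terminally differentiated cells, and each step held in 6 of 6 mice. In females it was at 18.5 ± 9.41 CPM in basal and 10.7 ± 6.40 CPM in proliferating cells. Suprabasal or spinous cells of females were at 11.9 ± 5.99 CPM. Terminally differentiated cells of females were at 18.5 ± 5.10 CPM, with 4 of 6 mice lower and 2 of 6 higher than in basal cells. Arntl in females was at 90.5 ± 7.75 CPM in basal and 44.6 ± 5.42 CPM in terminally differentiated cells, lower in 6 of 6 mice. The Dlk2 and Has2 clusters of the female basal class had Arntl at 70.7 ± 6.57 and 111 ± 11.8 CPM. In males, at a far lower level, Arntl was at 9.28 ± 2.30 CPM in basal and 12.2 ± 3.03 CPM in terminally differentiated cells, with 5 of 6 mice higher in the latter. Whether these gradients differ between the sexes was not tested.

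Migratory keratinocytes held the highest level of Clock among LC-like cells and the 5 keratinocyte classes in both sexes, 61.5 ± 5.61 CPM in males and 150 ± 14.9 CPM in females. In 6 of 6 mice of each sex they exceeded the next class. In females the class was a single cluster with Krt79 and Lhx2 among its leading genes. In males it held 2 unlike clusters, 1 of 2914 cells with the same leading genes and 1 of 1645 cells led by Dynap and Aox3, in which 6 basal and 4 migratory markers passed. The male level rested on the latter, with Clock at 87.5 ± 10.4 CPM there and at 49.6 ± 3.37 CPM in the Krt79 cluster (SD, n = 6), below the 56.1 ± 3.90 CPM of an unnamed keratinocyte cluster. Per2 also differed between the 2 male clusters, at 33.9 ± 7.20 CPM in the Dynap cluster and 15.9 ± 2.60 CPM in the Krt79 cluster. Per1 stood next to LC-like cells in them in both sexes, although in females they exceeded terminally differentiated cells in only 4 of 6 mice. Small T cell-like clusters, of 223 male and 339 female cells with few UMIs, held more Per1 than either, at 106 ± 31.4 and 92.4 ± 34.3 CPM. Neighbours in the order of Tef stood close: proliferating and migratory cells of males, and terminally differentiated and suprabasal cells of females, kept the order of their means in only 3 of 6 mice.

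**Figure D1:**
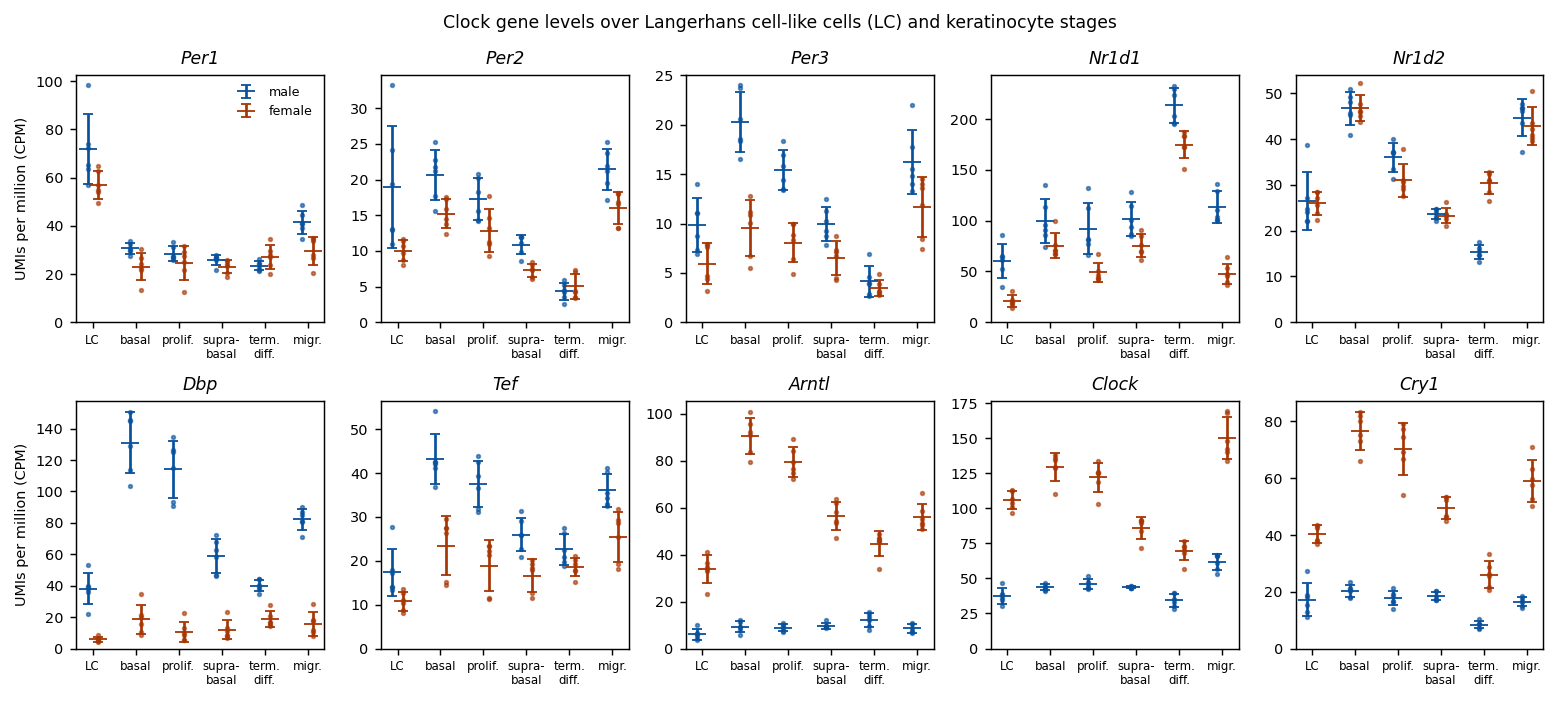
Level of each clock gene in CPM (counts per 1000000 UMIs, linear axes from 0) in LC-like cells (LC) and in 5 keratinocyte stages, with points for mice and a dash and bars for the mean and SD of 6 male or 6 female mice. Per1 stood highest in LC-like cells, Per2, Per3 and Cry1 lowest in terminally differentiated cells, and Nr1d1 highest there, in both sexes.

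Male and female libraries held the clock genes at widely different levels, in directions that set Arntl, Clock and Cry1 against Dbp, Nr1d1 and Tef. In all keratinocytes Dbp ranged from 63.0 to 90.5 CPM in males around a mean of 77.8 CPM, and had a median of 12.4 CPM in females, with 7.94 the lowest and 27.0 the highest. The lowest male thus had more than the highest female, and the male mean was 5.56 times the female mean. Arntl had a median of 11.2 CPM in males, from 10.2 to 14.6, and of 66.0 CPM in females, from 61.2 to 76.3. Here the female mean was 5.95 times the male mean. The other members without overlap were Nr1d1 and Tef, with male means 1.83 and 1.62 times the female means, and Clock and Cry1, with female means 2.34 and 3.56 times the male means. Per1, Per2, Per3 and Nr1d2 overlapped.

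That 6 of the 10 members did not overlap is no result about the list, because 6242 of 9032 genes with a mean of at least 5 CPM, or 69.1%, did not overlap between the sexes. The background also moved with gene structure. Each log2 difference here is between mean CPM values to which a pseudocount of 0.5 was added. The median log2 difference, female minus male, was 0.45 over all 9032 genes, −0.02 over genes with under 5000 intron bases and 1.12 over genes with 50000 intron bases or more. Genes with 20000 to under 50000 intron bases had a median of 0.57. Read against the median of their own intron class, the members lay on both sides. Outside the 5th to 95th percentile of their class lay only Dbp, Per3 and, narrowly, Tef, all on the low side. Nr1d1, with 4325 intron bases, had −0.86, within the 5th percentile of its class at −1.21. Dbp, with 2123 intron bases, had a log2 difference of −2.43, under the 5th percentile of its class at −1.21. Per3, with 31406 intron bases, had −0.58 against a class median of 0.57 and a 5th percentile of −0.33. Arntl, with 99139 intron bases, had 2.52 against a class median of 1.12, within the 95th percentile at 2.88, and Clock, with 1.22, lay next to that median. Cry1, with 50025 intron bases just inside the same class, had 1.80. Tef had −0.68, next to the 5th percentile of its class at −0.67.

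Among the 21 other clock genes fixed for comparison, 17 reached 5 CPM and 8 of those did not overlap between the sexes, 6 higher in females and 2 lower. Npas2, the close relative of Clock that pairs with Arntl, was at 1.17 ± 0.148 CPM in male and 39.8 ± 7.14 CPM in female keratinocytes. Its log2 difference of 4.60 lay above the 95th percentile of its intron class. Bhlhe41, a repressor induced by Arntl and Clock, was lower in females, at 7.66 against 14.4 CPM. In LC-like cells Arntl, Clock and Cry1 were higher in every female than in every male and Dbp and Nr1d1 lower, beside 42.9% of 9538 genes without overlap, while Tef overlapped there. Sex and counting software cannot be told apart here, and no test was made. The hour at which the skin of each mouse was taken is not given, so its part in these levels was not tested.

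**Figure D2:**
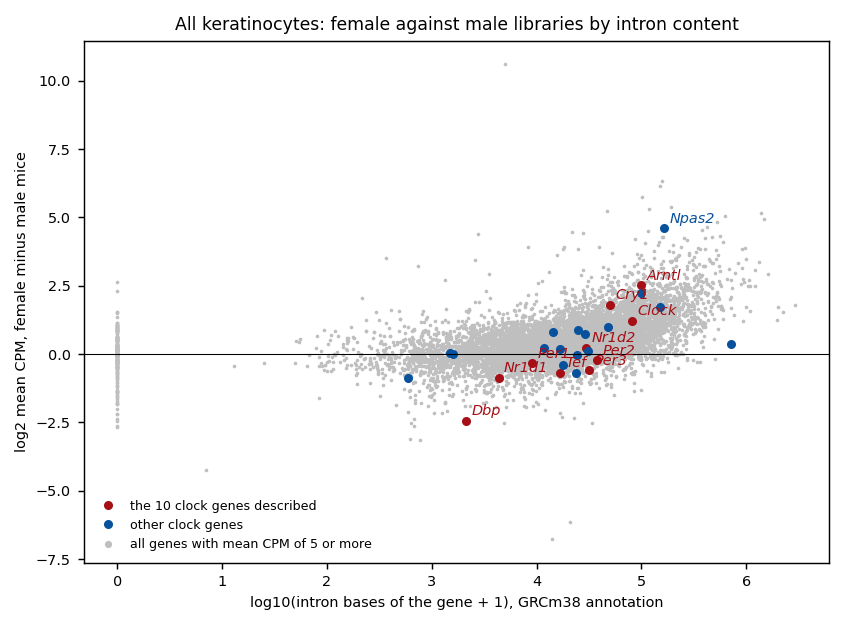
Each gene's log2 difference, female minus male, between the mean CPM (plus a pseudocount of 0.5) of 6 female and 6 male mice in all keratinocytes (vertical axis), against the log10 of its annotated intron bases plus 1 (horizontal axis). Grey points are all genes with a mean of at least 5 CPM that are in the annotation, red points the 10 clock genes and blue points the other clock genes; Dbp lies low at −2.43 among genes with few intron bases, and Arntl at 2.52 and Npas2 at 4.60 lie high among genes with many.

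One mouse departed from the other females in the whole set. In all keratinocytes, female HFD replicate 3 had the highest level of Per3, Nr1d1, Nr1d2, Dbp and Tef and the lowest level of Per1, Per2, Arntl, Clock and Cry1 among the 6 females. It thus stood at an end of the order for 10 of 10 members, while it did so for 39.4% of the 9032 genes. With TMM factors in place of plain CPM it stood at an end for 9 of 10 members, all but Tef, and for 37.5% of genes. No other female stood at an end for more than 4 members on either scale.

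The values show how far it stood out. Dbp was at 10.7, 15.8 and 14.0 CPM in female RD replicates 1 to 3, at 7.94 and 8.47 CPM in female HFD replicates 1 and 2, and at 27.0 CPM in replicate 3. The other HFD females were thus below all RD females, and replicate 3 was above them. Per1 was at 26.5, 24.6 and 22.5 CPM on RD and at 24.3, 28.8 and 15.3 CPM on HFD, where replicate 3 was the low one. Arntl was at 66.3, 65.3 and 65.7 CPM on RD and at 74.5, 76.3 and 61.2 CPM on HFD. Tef was at 21.9, 22.6 and 22.7 CPM on RD and at 13.3, 14.0 and 23.4 CPM on HFD. Tef was therefore low in the same 2 HFD females in which Dbp was low. Per3 was at 8.46, 8.20 and 9.18 CPM on RD and at 4.84, 5.99 and 10.2 CPM on HFD, with the same 2 females low again.

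The same mouse stood out within a single stage. In basal cells Dbp was at 15.5, 21.3 and 19.8 CPM in RD females, at 8.80 and 10.7 CPM in the first 2 HFD females, and at 34.9 CPM in replicate 3. The share of basal cells in female HFD replicate 3, 28.4% of its cells, was within the range of the other females, 25.4 to 35.1%. Its proliferating share of 20.3% and migratory share of 9.25% were the highest of the females, against 14.6 to 19.8% and 6.67 to 9.18% in the others. Its terminally differentiated share of 2.14% was the lowest, against 2.39 to 3.83%. The part of these shares in its levels over all keratinocytes was not tested. Its median mitochondrial share of UMIs, 2.02%, was also within their range of 1.98 to 2.66%, as was its total of 136408008 UMIs. The summed level of 8 glucocorticoid-responsive genes was lowest in this mouse among the females, at 808 CPM against 892 to 1018 CPM. The part of that in the clock gene values was not tested. Nor could that of the hour at which its skin was taken be tested, since the hour is not given. Male HFD replicate 2 was at an end for 6 members in CPM, highest in Arntl, Clock and Cry1 and lowest in Per3, Dbp and Tef, and for 31.4% of genes. With TMM factors it was at an end for 3 members, Arntl, Clock and Cry1.

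**Figure D3:**
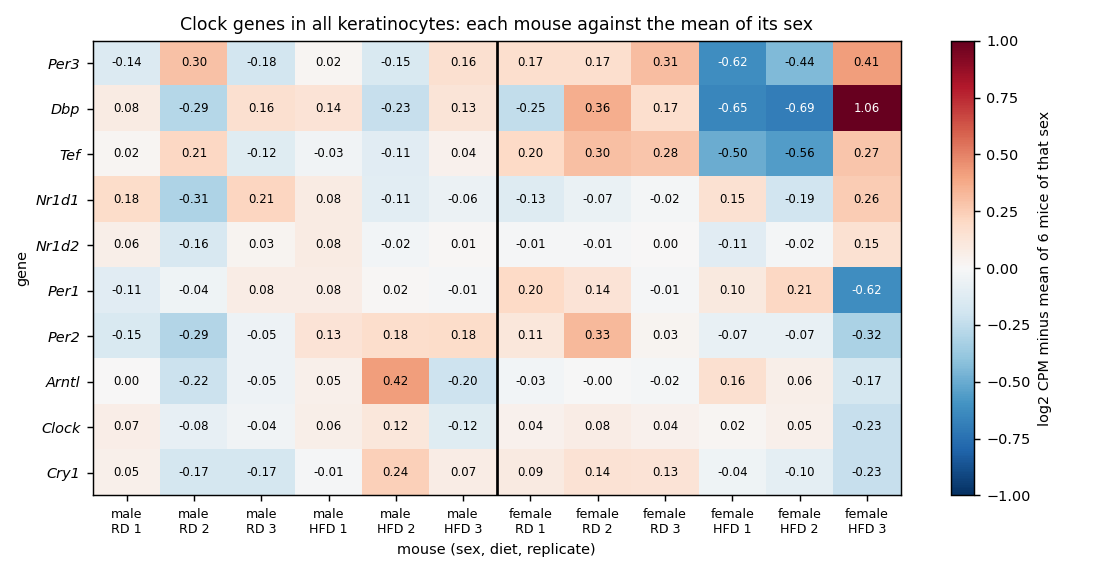
Log2 CPM of each clock gene in all keratinocytes of each mouse, with TMM factors and a prior count, minus the mean of the 6 mice of the same sex (colour and printed value, red above and blue below). Female HFD replicate 3 stands at 1.06 for Dbp and −0.62 for Per1, while female HFD replicates 1 and 2 stand below 0 for Per3, Dbp and Tef.

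The diet comparison asks whether clock genes changed in the epidermis of mice on HFD, and few differences passed the threshold. In all keratinocytes of females 0 of 10 members passed at an adjusted p of 0.05 (edgeR quasi-likelihood test, Benjamini-Hochberg), where 602 of 17726 genes, or 3.4%, did. 3 members, Per2, Cry1 and Tef, had an unadjusted p under 0.05, as did 3856 of the 17726 genes, or 21.8%, and DESeq2 called 1, Cry1, beside 10.4% of all genes it tested. In all keratinocytes of males 0 of 10 members and 0 of 15053 genes (0.0%, 1369 or 9.09% having a p under 0.05 before adjustment) passed, 2 members, Per2 and Cry1, had an unadjusted p under 0.05, and DESeq2 called 1, Per2, beside 1.47% of genes. The median log2 difference, HFD minus RD, was −0.13 over the members in females, against 0.01 over all genes, and 0.06 in males, against −0.01.

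Cry1 came nearest to the threshold among females. It was at 66.4, 66.4 and 67.1 CPM in RD females and at 59.5, 62.7 and 53.9 CPM in HFD females. Every HFD female was below every RD female, and the log2 difference was −0.25 ± 0.06 (SE), with an edgeR adjusted p of 0.0659. In suprabasal or spinous cells of females Cry1 fell from 52.5, 53.5 and 53.2 CPM on RD to 46.6, 46.3 and 45.1 CPM on HFD, a log2 difference of −0.24 ± 0.06 with an edgeR adjusted p of 0.0431. It was the only 1 of 50 pairs of member and keratinocyte stage that passed in females, beside 4.31% of all genes in that stage. Leaving out any 1 of the 6 females ended the call, with adjusted p-values between 0.0515 and 0.156. In male keratinocytes Cry1 was at 16.7 ± 0.663 CPM on RD and 18.6 ± 1.62 CPM on HFD (SD, n = 3), with an edgeR adjusted p of 0.519.

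Leaving out female HFD replicate 3, which was singled out by its values in these same genes, moved the diet differences of Tef, Per3 and Dbp, and of these 1, Tef, then passed, as did 6 of 18015 genes, or 0.0333%. Over all 6 females the log2 difference of Tef was −0.47 ± 0.19, with an edgeR adjusted p of 0.210. Without that mouse it was −0.79 ± 0.07, with an edgeR adjusted p of 0.0247. For Dbp the difference over all 6 females was 0.04 ± 0.43, and without that mouse it was −0.79 ± 0.16, with an edgeR adjusted p of 0.0910. For Per3 it was −0.36 ± 0.24 with the mouse and −0.74 ± 0.10 without it, with an edgeR adjusted p of 0.0663 in the latter. The remaining 2 HFD females thus each had less Tef, Dbp and Per3 than any RD female. Without the mouse 4 pairs of member and stage passed in females: Tef in basal, proliferating and suprabasal or spinous cells, and Per3 in suprabasal or spinous cells. Of all genes 0.115% passed without the mouse in basal, 0.18% in proliferating and 0.744% in suprabasal or spinous cells.

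Per2 had diet differences of opposite sign in the sexes. The log2 differences of Per1, Per3, Nr1d1, Clock and Cry1 also had opposite signs in males and females, with 0.22 in males and −0.25 in females for Cry1. In male keratinocytes Per2 was at 11.5, 11.3 and 13.4 CPM on RD and at 14.0, 14.3 and 15.5 CPM on HFD, so that every HFD male was above every RD male. Its log2 difference was 0.34 ± 0.08, with an edgeR adjusted p of 0.242. In female keratinocytes it was at 12.1, 13.6 and 11.2 CPM on RD and at 10.5, 11.5 and 9.14 CPM on HFD. These groups overlapped in CPM, while with TMM factors each HFD female was below each RD female, and the log2 difference was −0.31 ± 0.10, with an edgeR adjusted p of 0.127. The difference between the sexes, male minus female, was 0.63 ± 0.14, with an edgeR adjusted p of 0.0398 for the interaction of diet and sex. Sex and counting software cannot be told apart in this interaction. Per2 was the only member of 10 to pass there, beside 1.53% of all genes, and DESeq2 called Per2 and Cry1, beside 6.92% of genes. The call did not hold without every mouse. Leaving out 1 mouse moved the edgeR adjusted p of Per2 to between 0.0380 and 0.0944, and it missed the threshold for 9 of the 12 mice. The log2 difference of Per2 then lay between 0.54 and 0.70. Of all genes 19 to 526 passed in those fits, against 275 with all mice. Per2 passed without male RD replicate 2, male HFD replicate 3 or female HFD replicate 1.

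In LC-like cells Per2 showed the same directions with fewer UMIs, and its differences were not tested against those of keratinocytes. It was at 11.0, 12.9 and 13.1 CPM in RD males and at 33.2, 19.4 and 24.1 CPM in HFD males. The log2 difference was 1.01 ± 0.27, every HFD male was above every RD male, and the edgeR adjusted p was 0.844. These levels rested on 13 to 35 UMIs per mouse. In the LC-like cells with fewer keratin UMIs the RD males were at 16.8, 10.2 and 7.89 CPM and the HFD males at 24.3, 29.6 and 26.3 CPM, again without overlap. In LC-like cells of females Per2 was at 11.7, 11.4 and 10.7 CPM on RD and at 8.79, 8.03 and 9.67 CPM on HFD, each HFD female below each RD female. The log2 difference was −0.36 ± 0.21, with an edgeR adjusted p of 0.619. In the cells with fewer keratin UMIs these females overlapped, at 10.6, 15.1 and 8.55 CPM on RD and at 9.12, 11.4 and 4.31 CPM on HFD.

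None of the members passed in LC-like cells. In males 9 members were tested, since Arntl had too few UMIs for the filter, and 0 passed, as did 0 of 8215 genes (0.0%, 448 having a p under 0.05 before adjustment). In females 0 of 10 passed, beside 7 of 10533 genes, or 0.0665% (1032 before adjustment), and for the interaction 0 of 10 passed, beside 0 of 10552 genes (0.0%, 555 before adjustment). At an unadjusted p under 0.05 there was 1 member in males, Per2, 1 in females, Nr1d1, and 2 for the interaction, Per2 and Nr1d1, and DESeq2 called 0 members in each, where it called 0.0243% of genes for the males, 0.555% for the females and 0.0% by interaction. Nr1d1 was at 13.8, 16.7 and 19.4 CPM in LC-like cells of RD females and at 22.2, 20.3 and 30.9 CPM in those of HFD females, without overlap, and its log2 difference was 0.51 ± 0.21 with an edgeR adjusted p of 0.456. In the cells with fewer keratin UMIs these groups overlapped, at 4.41, 5.82 and 2.14 CPM on RD and at 2.10, 4.89 and 6.47 CPM on HFD. In males Nr1d1 was at 66.4 ± 17.2 CPM on RD and 54.5 ± 17.5 CPM on HFD (SD, n = 3) in all LC-like cells. In those with fewer keratin UMIs the direction turned, with 20.6, 6.79 and 18.4 CPM on RD and 18.9, 22.2 and 28.5 CPM on HFD.

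Per2 in males lay higher on HFD in 4 of the 5 keratinocyte stages without overlap of the groups. The stages came from the same male libraries and are not separate observations. How many of all genes had diet groups without overlap is not given here. Of the 2 male migratory clusters, the Krt79 cluster had Per2 higher on HFD, with 16.0 CPM the highest RD and 16.7 CPM the lowest HFD value. In the Dynap cluster the groups overlapped, with 34.5 and 34.2 CPM. In proliferating cells it was at 14.3, 14.2 and 15.6 CPM on RD and at 20.2, 18.3 and 20.8 CPM on HFD, with a log2 difference of 0.43 ± 0.09 and an edgeR adjusted p of 0.235. The exception was the terminally differentiated stage, with 5.14 ± 0.799 CPM on RD and 3.55 ± 1.04 CPM on HFD (SD, n = 3). TMM factors among the males ran from 0.742 to 1.41 in that stage, and with them the log2 difference was −0.10 ± 0.25, with an edgeR adjusted p of 0.812. In proliferating cells of females it was at 13.2, 17.7 and 14.6 CPM on RD and at 10.9, 11.2 and 9.32 CPM on HFD, with a log2 difference of −0.56 ± 0.13 and an edgeR adjusted p of 0.0584. No pair of member and stage passed among the 50 of males, of which 9 had an unadjusted p under 0.05 and DESeq2 called 1, Arntl in terminally differentiated cells, beside 2.12% of genes there and 0.132% in basal, 0.0862% in migratory, 0.879% in proliferating and 0.166% in suprabasal or spinous cells. Of the 50 pairs of females 12 had an unadjusted p under 0.05 and DESeq2 called 4, beside 3.75% of genes in basal, 1.67% in migratory, 4.38% in proliferating, 7.81% in suprabasal or spinous and 0.218% in terminally differentiated cells. Before adjustment the share of all genes under 0.05 in males was 6.66% in basal, 5.53% in migratory, 9.48% in proliferating, 6.0% in suprabasal or spinous and 25.7% in terminally differentiated cells. In females it was 16.2%, 14.7%, 19.6%, 22.6% and 8.14% in the same order. All genes called in males were 0.0% in each stage, and in females 0.964% in basal, 0.248% in migratory, 1.77% in proliferating and 0.0% in terminally differentiated cells.

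**Figure D4:**
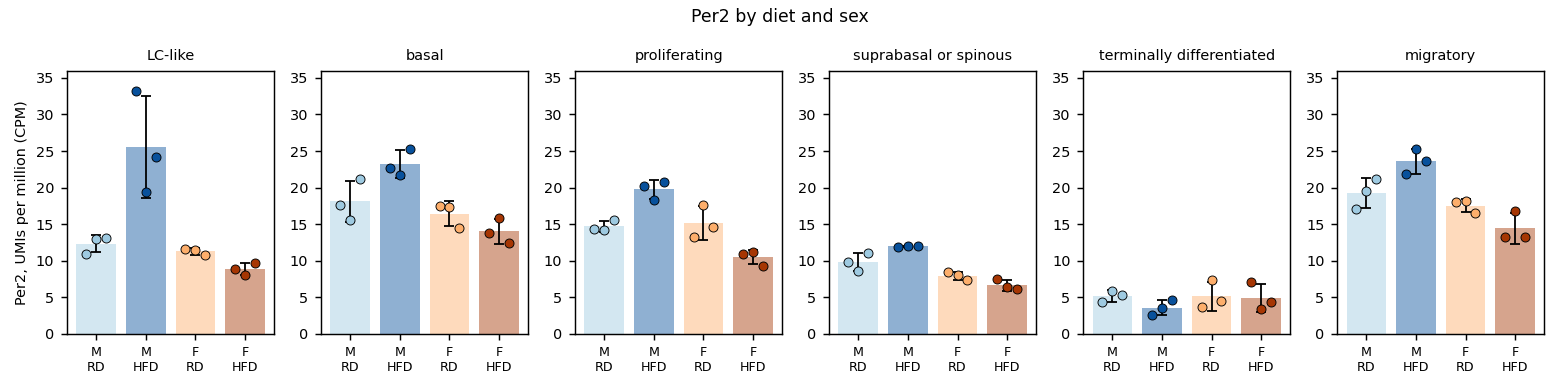
Per2 in CPM (counts per 1000000 UMIs, linear axes from 0) in LC-like cells and 5 keratinocyte stages of male (M) and female (F) mice on RD or HFD, with points for mice, bars for the mean and lines for the SD of 3 mice. The 3 HFD males stand above the 3 RD males in each class but terminally differentiated cells, while the HFD females have the lower mean in each class.

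Nr1d1 in proliferating cells of males passed or missed the threshold depending on the setting. It was at 113, 77.4 and 132 CPM on RD and at 81.4, 66.5 and 82.3 CPM on HFD, with RD replicate 2 the low one of its group. The log2 difference was −0.49 ± 0.16 over all 6 males, with an edgeR adjusted p of 0.370. Without the filter on low counts it was −0.49, with an edgeR adjusted p of 0.000413, beside 1.6% of all genes. Without male RD replicate 2 it was −0.67, with an edgeR adjusted p of 0.0250, beside 0.153% of all genes. That library stood at an end of the 6 males for 58.9% of genes and for 6 members in CPM, and with TMM factors for 58.1% of genes and for 8 members, the most of any male.

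In all keratinocytes Nr1d1, Nr1d2, Arntl, Clock and Per1 had log2 differences between −0.17 and 0.16 in females and between −0.06 and 0.21 in males, and their RD and HFD groups overlapped in both sexes. Nr1d1 in suprabasal or spinous cells of females was higher on HFD without overlap, at 84.3 ± 7.45 CPM against 66.8 ± 4.90 CPM (SD, n = 3), with an edgeR adjusted p of 0.0806. It passed by DESeq2 (adjusted p = 0.0285), without the filter on low counts (edgeR adjusted p = 0.0273) and without female HFD replicate 2 (edgeR adjusted p = 0.0201), where 883, 1152 and 1005 genes passed in that stage. In all keratinocytes of females its log2 difference was 0.16, and without female HFD replicate 2 it was 0.27, with an edgeR adjusted p of 0.0498, beside 5.12% of all genes. Arntl in terminally differentiated cells of males was at 10.3 ± 2.95 CPM on RD and 14.1 ± 1.86 CPM on HFD (SD, n = 3). These groups overlapped, and the log2 difference, with TMM factors, was 0.89 ± 0.17 with an edgeR adjusted p of 0.128. TMM factors ran from 0.742 to 1.41 among the males in that stage. Arntl passed there by DESeq2 (adjusted p = 0.0191), without the filter (edgeR adjusted p = 0.00593) and without male RD replicate 3 (edgeR adjusted p = 0.0311). In these settings 86, 785 and 1108 genes passed in that stage.

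**Figure D5:**
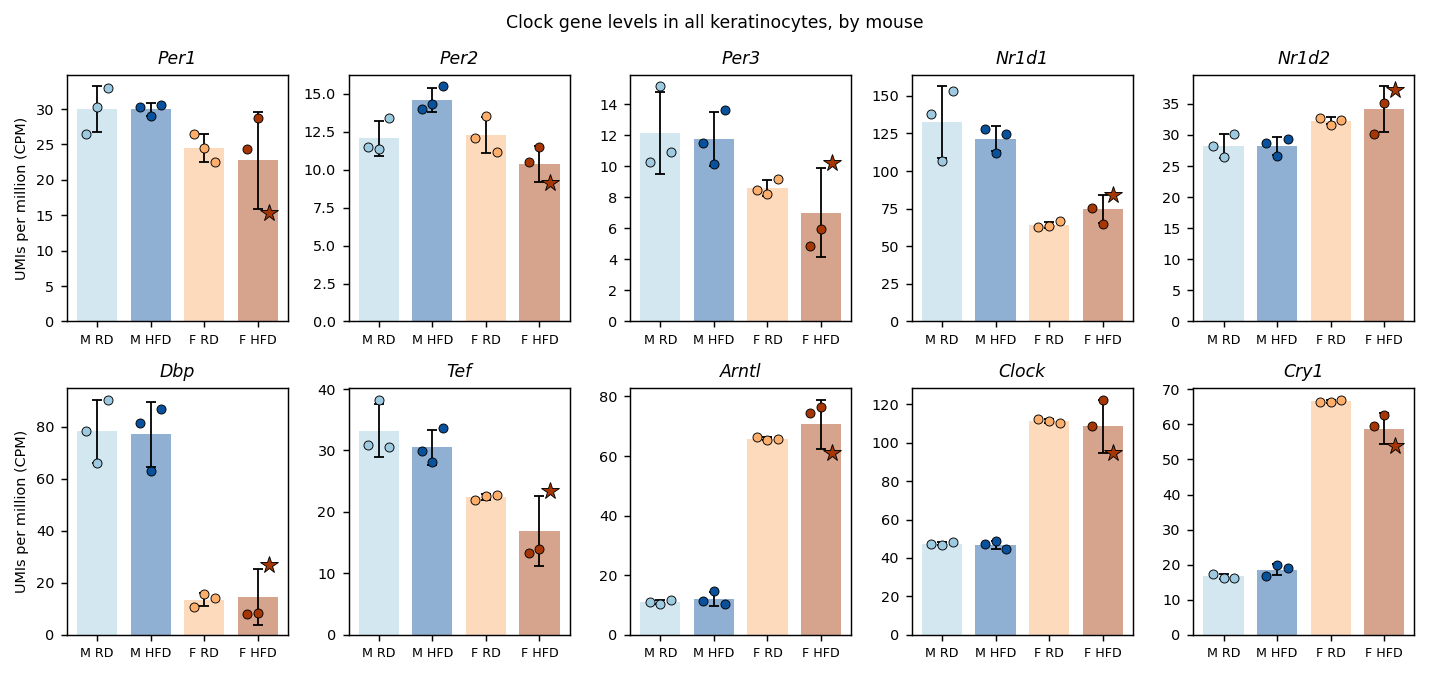
Level of each clock gene in all keratinocytes in CPM (counts per 1000000 UMIs, linear axes from 0) for 3 mice in each of 4 groups (M male, F female), with bars for means, lines for the SD and a star for female HFD replicate 3. The groups of a sex overlap for most genes, Cry1 in females and Per2 in males being the exceptions, and the star lies apart from the other HFD females in Dbp at 27.0 CPM and in Per1 at 15.3 CPM.

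Of the 21 other clock genes, 3 fell in keratinocytes of HFD females and 0 rose, with 21 tested and 7 at an unadjusted p under 0.05, and 0 passed in males, with 20 tested and 6 at an unadjusted p under 0.05. The edgeR share of all genes was 3.4% in females and 0.0% in males. DESeq2 called 4 in females and 0 in males, beside 10.4% and 1.47% of genes. Hlf, a D-box factor of the same family as Dbp and Tef, was at 99.6 ± 8.20 CPM on RD and 70.5 ± 12.4 CPM on HFD (SD, n = 3), a log2 difference of −0.56 with an edgeR adjusted p of 0.0405. Rora, which activates Arntl through ROR elements, was at 658 ± 10.3 and 515 ± 60.5 CPM, a log2 difference of −0.42 with an edgeR adjusted p of 0.0434. For both genes each HFD female was below each RD female. Hlf passed in 5 and Rora in 6 of 11 alternatives. Leaving out female HFD replicate 3 or any 1 of the RD females ended each of these calls. In those fits 2 to 6 of all genes passed, against 602 with all females. Over the alternatives the log2 difference lay between −0.68 and −0.45 for Hlf and between −0.48 and −0.33 for Rora. Rora also passed for the interaction, with a difference between the sexes, male minus female, of 0.65 and an edgeR adjusted p of 0.0441. There too sex and counting software cannot be told apart. In LC-like cells 0 of 14 genes tested in males and 0 of 16 in females passed, of which 0 and 2 stood under 0.05 before adjustment, and DESeq2 gave 0 in each.

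Lists that respond to handling or hormones were set beside these values. Of 8 glucocorticoid-responsive genes, 1 fell in keratinocytes of HFD females, Fkbp5, a chaperone partner of the glucocorticoid receptor, at 16.0 ± 1.72 CPM on RD and 10.7 ± 1.33 CPM on HFD (SD, n = 3), with an edgeR adjusted p of 0.0263, beside 3.4% of all genes. Fkbp5 passed in 6 of 11 alternatives. DESeq2 called 1 of the 8. An unadjusted p under 0.05 was given by 3 of them, Fkbp5, Tsc22d3 and Errfi1, with log2 differences of −0.65, −0.42 and −0.25, beside 21.8% of all genes. In males 0 of 8 passed by edgeR or DESeq2, and 1 had an unadjusted p under 0.05. Of 11 immediate early genes, 0 passed in keratinocytes or LC-like cells of either sex by either tool, and 0 had an unadjusted p under 0.05. Of 5 heat shock genes 0 passed by edgeR. In females 2 of them in keratinocytes and 4 in LC-like cells stood under 0.05 before adjustment, and DESeq2 gave 1 in keratinocytes. Their summed levels in keratinocytes overlapped between the diets for immediate early genes in both sexes. In LC-like cells of females the immediate early genes summed to 6091 to 8116 CPM on RD and to 8367 to 8585 CPM on HFD, without overlap. In keratinocytes the heat shock genes summed to 1688 to 2232 CPM in RD and to 2314 to 2590 CPM in HFD females, without overlap, while in LC-like cells of females their sums overlapped. The part of these lists in the clock gene differences was not tested.

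Over the 6 mice of each sex, Arntl was related to the other 9 members in all keratinocytes, giving 18 relations, none of which passed after adjustment. The closest to the threshold were Clock in males and Per3 in females, both with an adjusted p of 0.05, at but not under it. Clock rose with Arntl over the males (Pearson's r 0.904, exact permutation p = 0.00278, Spearman's rho 0.943, exact permutation p = 0.0167), and r was 0.930 without the 2 mice farthest from the median of Arntl. Per3 went against Arntl over the females (r −0.895, exact permutation p = 0.00556, rho −0.829, exact permutation p = 0.0583), with r −0.915 without the 2 farthest mice, HFD replicates 1 and 3. Dbp and Nr1d2 also went against Arntl over the females, with r −0.886 and −0.950 (exact permutation p = 0.0222 and 0.0181, adjusted p = 0.1 for both). Without the 2 farthest mice r was −0.641 and −0.322, so that the relation of Nr1d2 rested on them. Over the males Dbp had r −0.324 with Arntl (exact permutation p = 0.596).

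The levels of each member in LC-like cells were set against those in keratinocytes of the same mouse, 20 relations over 6 mice of each sex. In females r was positive for 10 of 10 members, with a median of 0.64, and in males for 6 of 10, with a median of 0.60. None passed after adjustment, the lowest adjusted p being 0.0833. Per1 in females had the lowest p, with r 0.835 (exact permutation p = 0.00417) and rho 0.943 (exact permutation p = 0.0167), and r 0.990 without the 2 farthest mice. Tef in males had r 0.926 (exact permutation p = 0.0181, adjusted p = 0.160). LC-like cells and keratinocytes of a mouse came from 1 library and shared keratinocyte RNA.

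The genes whose level over the 12 mice was most like that of Dbp, after removal of the mean of each sex, were sought among 9031 genes with a mean of at least 5 CPM. The 5 highest correlations were those of Ripk2 (r 0.833), Cxxc1 (0.829), Gm47283 (0.816), Hoxc13 (0.801) and Men1 (0.788), and among the 5 lowest were those of Tcf7l2 (−0.861), Asxl1 (−0.849), Slc35c2 (−0.841) and Qk (−0.839). These correlations are a description over 12 mice, in which female HFD replicate 3 is the most distant in Dbp. Among the clock genes Ciart, a repressor of Arntl and Clock, stood 6th from the top with r 0.785, Nr1d2 17th with 0.749, Bhlhe41 28th with 0.723, Per3 34th with 0.706 and Tef 35th with 0.705. Wee1, a cell cycle kinase under clock control, and Per1 stood near the bottom, with r −0.756 and −0.745. The rest of the clock genes lay between these ends, among them Nr1d1 with r 0.522, Hlf with 0.234, Arntl with −0.431 and Npas2 with −0.709.

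In the genome (GRCm38) Per1 lies on chromosome 11 from 69095217 to 69109960, Per2 on chromosome 1 from 91415982 to 91459324, and Per3 on chromosome 4 from 151003652 to 151044665, where it overlaps Camta1 on the same strand. Nr1d1 lies on chromosome 11 from 98767932 to 98775333 and overlaps Thra on the opposite strand. Dbp lies on chromosome 7 from 45705088 to 45710203 and overlaps Sphk2 on the opposite strand. Arntl lies on chromosome 7 from 113207465 to 113314126 and Cry1 on chromosome 10 from 85131700 to 85185064. Arntl overlaps Gm45355 and Tef overlaps Gm17597, both on the opposite strand. Clock overlaps Gm43658 and Ube2n-ps1 on the same strand. The counts are 3' tags of whole genes, so that exons and introns cannot be told apart in them. UMIs in the stretches that Per3 shares with Camta1, and Clock with Gm43658 and Ube2n-ps1, are uncertain.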

How the data were processed

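The authors deposited, for each mouse, a matrix of raw UMI counts (genes by cell barcodes). Reads were aligned to mm10 (GRCm38) per the labels, which name Cell Ranger 7.2.0 for all samples, while the male file headers name 6.1.0. Whether intronic reads were counted is not given in the sources used here. Totals were 134449247 to 194673581 UMIs per library, which left 5 to 375 UMIs per member and mouse in LC-like cells.

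After the study's methods, cells with 200 (males) or 500 (females) to 6000 genes were kept where mitochondrial UMIs made up 5% or less. Each sex was clustered alone with 2000 variable genes, clock genes excluded, 10 principal components and Leiden clustering (leidenalg 0.10.2, Python 3.11.15). Clusters were named from fixed markers, each needing at least 3, but this count alone does not give every name. The male Serpinb3a cluster stayed unnamed with 7 suprabasal or spinous markers passing. The female Il34 and Mt4 cluster stayed unnamed with 3, while the male Il34 and Mt4 cluster was named suprabasal or spinous with 3. The male Dynap cluster was named migratory with 4 migratory markers, although 6 basal markers passed. What else decided these names is not given here. Unnamed clusters were kept within the keratinocytes. No doublet caller was run. Counts were summed per mouse and population and tested with edgeR 4.0.16 (R 4.3.3) by quasi-likelihood, with TMM and filterByExpr, and Benjamini-Hochberg over all genes tested. The script was tested on simulated data. CPM are summed counts per 1000000 UMIs of the same cells. Relations over mice used log2 CPM with a prior count of 2 and exact permutation tests (two-sided), in which 6 mice cannot give a p under 0.00139 for r or 0.00278 for rho. Intron bases were taken from GENCODE vM21.

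The members, lists and tests were chosen with earlier results of these data known. Members were named throughout, other clock genes where a diet or interaction fit called them or beside Dbp and the sexes, and the response lists by counts. A called clock gene and a gene correlated with Dbp are counted but not reported here. Bhlhe41, Ciart, Npas2 and Wee1 were named after their values were seen. Alternatives were DESeq2 1.42.0, no filter, a replicate block, each mouse left out, a 10% mitochondrial limit, 500 to 5000 genes, finer clustering, LC-like cells with fewer keratin UMIs and, for relations, basal cells or CPM without TMM. Same-numbered RD and HFD libraries did not deviate together (correlations −0.33 to 0.24), so numbers were not treated as pairs. Mice were separate animals per the labels.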

Additional observations from a re-analysis of the deposited data

Results flagged for a closer look

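The diet effect on Per2 in all keratinocytes differed between the sexes, male minus female, by 0.632 on the log2 scale (edgeR interaction, adjusted p = 0.0398). Per2 was higher on HFD in males and lower on HFD in females. The same difference was 1.35 in LC-like cells, with an edgeR adjusted p of 0.643. Sex and counting software cannot be told apart in either interaction.

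The diet effect on Rora in all keratinocytes also differed between the sexes, male minus female, by 0.655 on the log2 scale (edgeR interaction, adjusted p = 0.0441). Rora has 721390 intron bases, and sex and counting software cannot be told apart in its interaction. Rora fell in HFD females, from 658 to 515 CPM, and was at 389 to 491 CPM in RD and 457 to 499 CPM in HFD males. Over 16 alternatives its edgeR or DESeq2 adjusted p lay between 0.00116 and 0.131, under the threshold in 5 of them. With 3 mice in each group no single library was tested as an outlier.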

How the results depend on the processing

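In LC-like cells 0 members passed under every alternative run, in either sex or for the interaction. In all keratinocytes 0 members passed in males and females, and DESeq2 gave 1 in each. Leaving out each mouse gave 0 to 1 in females (Nr1d1 without HFD replicate 2, Tef without HFD replicate 3) and 0 in males. For the interaction in all keratinocytes 1 member passed, DESeq2 gave 2, a range of 500 to 5000 genes per cell gave 0, and leaving out each mouse gave 0 to 1. Of pairs of member and stage, males had 0, with 1 by DESeq2, 4 without the low-count filter and 0 to 2 without 1 mouse (2 without RD replicate 2, 1 without RD replicate 3). Beside these, 77 to 785 genes per stage passed in males without the filter, 96 basal and 19 proliferating genes without RD replicate 2, and 1108 terminally differentiated genes without RD replicate 3. Females had 1, with 4 by DESeq2, 5 without the filter, 0 at 500 to 5000 genes per cell, and 0 to 4 without 1 mouse (4 without HFD replicate 3), beside 154 to 1152 genes per stage without the filter. With the replicate number as a block, females had 0 pairs, and the block changed no other count. The numbers did not pair the samples (correlations −0.33 to 0.24). Of 18 relations with Arntl 0 passed, and 0 to 3 did without 1 mouse (3 without female RD replicate 1), and of 20 relations between LC-like cells and keratinocytes 0 passed throughout. With 1 mouse left out, the 5 mice of that sex cannot give a p under 0.00833 for r (exact permutation test), so few relations could pass there. Of 59 log2 differences of members, 37 kept their sign under all alternatives that tested them and 22 changed it under at least 1, none of them a called one. Some members had no fit in the LC-like cells with fewer keratin UMIs. Nr1d1 in males was among them, and the direction of its CPM turned in those cells. The causes were not tested.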
